A study of Homo sapiens with 14 samples.

Results

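The comparison described here sets the RNA base editor REPAIR.t1 against the editor REPAIRv2 in HEK293T cells, both with the guide labelled NT, by every adenosine position that the 4 libraries list. Members are taken by chromosome and position from each list with the A-to-G rate and no threshold. They are 7064 distinct positions of the 26172 listed by the 14 libraries of the series. REPAIR.t1 with NT contributed 7047 of them from 2 libraries, and REPAIRv2 with NT contributed 81 from 2 libraries.

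HEK293T is a human embryonic kidney line, labelled epithelial. The labels name the editors (Repair.t1 and Repair.v2 in the titles), the guide and the replicate number, but not the dose, the time after delivery or the promoter. They also do not say whether replicates are separate cultures. Every p-value therefore speaks of the spread among the libraries at hand, and that spread may be technical. NT is not spelled out in the labels, and no library without an editor was analysed here, so no background level from untreated cells stands beside the values. The lists hold no gene names or expression levels, so the cell line was not checked against marker genes. The other groups of the series, used below only as context, are both editors with the EZH2_A22 guide, dCas13d-ADAR with NT or EZH2 guides, and DECOR labelled MALAT1, which was sequenced with longer reads.

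RNA base editors of this kind carry an adenosine deaminase to a transcript. The deaminase turns adenosine into inosine, which pairs like guanosine and is therefore read as G after reverse transcription. In the REPAIR design a catalytically inactive Cas13 protein, which binds RNA through its guide, is fused to the deaminase domain of human ADAR2, and REPAIRv2 is the version in which that domain was mutated for fewer edits away from the target. What distinguishes REPAIR.t1 is not given in the sources used here. A position read as G where the reference genome has A may have been edited away from a target, edited by the cell's own ADAR enzymes, or be a G in the DNA of the cells, and the lists do not separate these. Positions are those of hg19, and genes, strands and flanking sequence of that build were not analysed here.

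The REPAIR.t1 NT libraries listed about 98 times as many sites as the REPAIRv2 NT libraries. REPAIR.t1 NT replicates 1 and 2 listed 4683 and 4356 sites, and both REPAIRv2 NT libraries listed 46. The ratio of geometric means was 98.2, and the REPAIR.t1 libraries both lay far above the REPAIRv2 libraries. With 2 libraries against 2 a two-sided exact permutation test allows only 6 arrangements, and it gave p = 0.333, the smallest possible, so this test cannot pass 0.05 for any per-library value here. When only sites in both libraries of a group were counted, the ratio was 181.1 (1992 sites against 11). The lists give no read counts and no coverage, so the depth behind each rate is unknown and no counting interval can be put on a rate. Absence from a list does not show that a position was not edited, since edits under the authors' threshold and positions with few reads would be absent too. The libraries are bulk RNA, so fewer cells with an editor and less editing per cell cannot be told apart.

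Within each list, the distribution of levels did not separate the editors. Each list was taken over its own sites, above a threshold that is not given. These levels therefore do not compare the editors at the same sites, which is done below. The median A-to-G rate was 0.250 in both REPAIR.t1 NT libraries, and 0.273 and 0.244 in REPAIRv2 NT replicates 1 and 2. The REPAIRv2 medians lay on either side of the REPAIR.t1 medians, and the difference of REPAIR.t1 minus REPAIRv2 was -0.00839 (two-sided exact permutation p = 1). The middle 50% of rates ran from 0.190 to 0.333 in each REPAIR.t1 NT library, from 0.193 to 0.313 in REPAIRv2 NT replicate 1 and from 0.182 to 0.30 in replicate 2. Rates of at least 0.5 were held by 203 and 186 sites in the REPAIR.t1 NT lists (4.33% and 4.27%) and by 1 and 3 sites in the REPAIRv2 NT lists (2.17% and 6.52%). The REPAIRv2 shares lay on either side of the REPAIR.t1 shares. The direction of the median difference turned without REPAIRv2 NT replicate 1, at 0.00595, and with a minimum level of 0.2, at 3.55e-05.

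**Figure D1:**
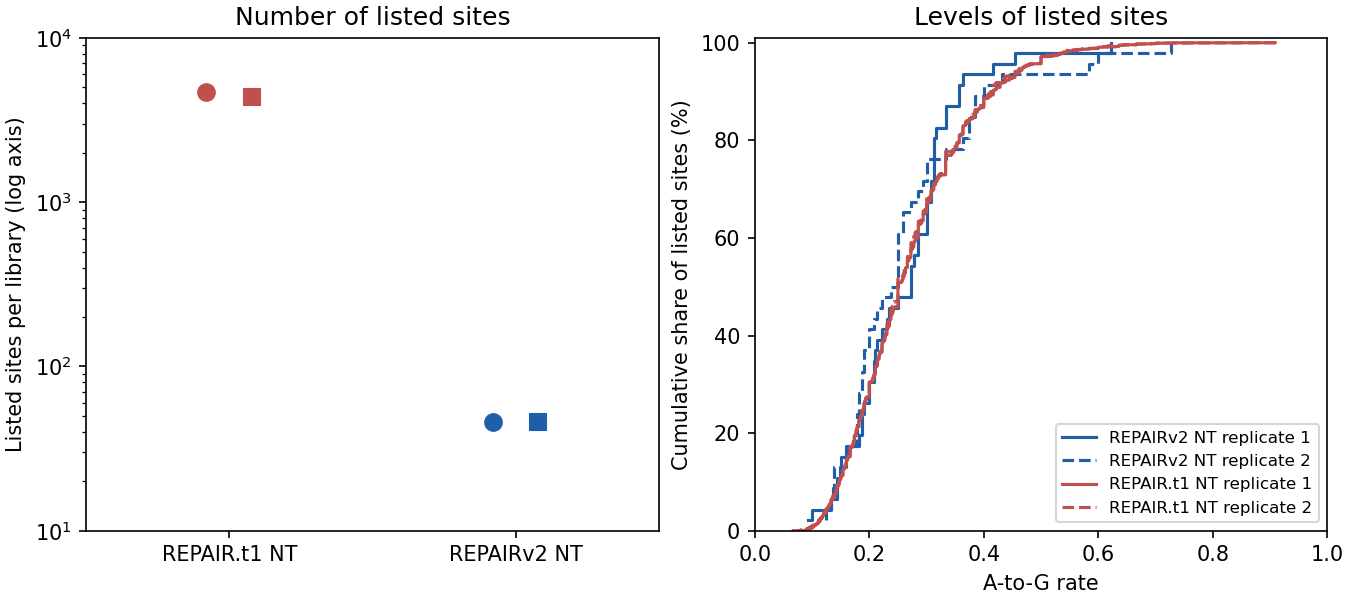
Left, number of listed sites per library on a log axis for REPAIR.t1 NT and REPAIRv2 NT (circle, replicate 1; square, replicate 2). Right, cumulative share of each library's sites against the A-to-G rate. The lists differ in length by a ratio of 98.2 while the curves of rates lie close together, with medians of 0.244 to 0.273. Each curve is over that library's own sites, not the same sites.

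Most REPAIRv2 NT positions were also REPAIR.t1 NT positions, and hardly any the other way round. Of the 81 REPAIRv2 NT positions, 64 (79.0%) were in at least 1 REPAIR.t1 NT list, 55 of them in both. These 64 were 0.908% of the 7047 REPAIR.t1 NT positions. Library by library, 73.9% to 80.4% of a REPAIRv2 NT list was in a REPAIR.t1 NT list over the 4 pairs, and 0.726% to 0.849% of a REPAIR.t1 NT list was in a REPAIRv2 NT list. The REPAIRv2 NT replicates shared 11 positions, 23.9% of each list, so each REPAIRv2 NT list shared more positions with either REPAIR.t1 NT list, which are about 98 times as long, than with its own replicate. The REPAIR.t1 NT replicates shared 1992 positions, 42.5% of replicate 1 and 45.7% of replicate 2. At a minimum level of 0.2 the mean share of REPAIRv2 positions in REPAIR.t1 lists fell from 76.6% to 68.7%. All 11 positions in both REPAIRv2 NT lists were in both REPAIR.t1 NT lists. No position was in both REPAIRv2 NT lists and missing from a REPAIR.t1 NT list.

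The higher the level of a site in REPAIR.t1, the more often REPAIRv2 listed it. Among the 1992 sites in both REPAIR.t1 NT libraries, 55 (2.76%) were in at least 1 REPAIRv2 NT list. Below a mean REPAIR.t1 rate of 0.2 the count was 0 of 455 sites, which allows a share of up to 0.659% (3 counts of the total). The exact Clopper-Pearson 95% interval, used for the other bins, reached 0.807% in this bin. From 0.2 to 0.3 the count was 8 of 785 (1.02%, exact Clopper-Pearson 95% interval 0.441% to 2.00%), and from 0.3 to 0.4 it was 18 of 495 (3.64%, interval 2.17% to 5.69%). The upper bins held larger shares still. From 0.4 to 0.5 it was 18 of 194 (9.28%, interval 5.59% to 14.3%), and at 0.5 or more it was 11 of 63 (17.5%, interval 9.05% to 29.1%). These intervals cover counting error over sites only. Even in the top bin 52 of 63 sites were in neither REPAIRv2 NT list. With the REPAIRv2 EZH2_A22 lists added, the top bin reached 36.5% and the bin under 0.2 held 1 listed site (0.220%). With REPAIR.t1 NT replicate 2 or replicate 1 left out, the top bin was 5.91% or 7.53%, since a site then needs only 1 REPAIR.t1 list. The share rose from bin to bin in each of these settings. Why REPAIRv2 listed some sites and not others was not tested.

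**Figure D2:**
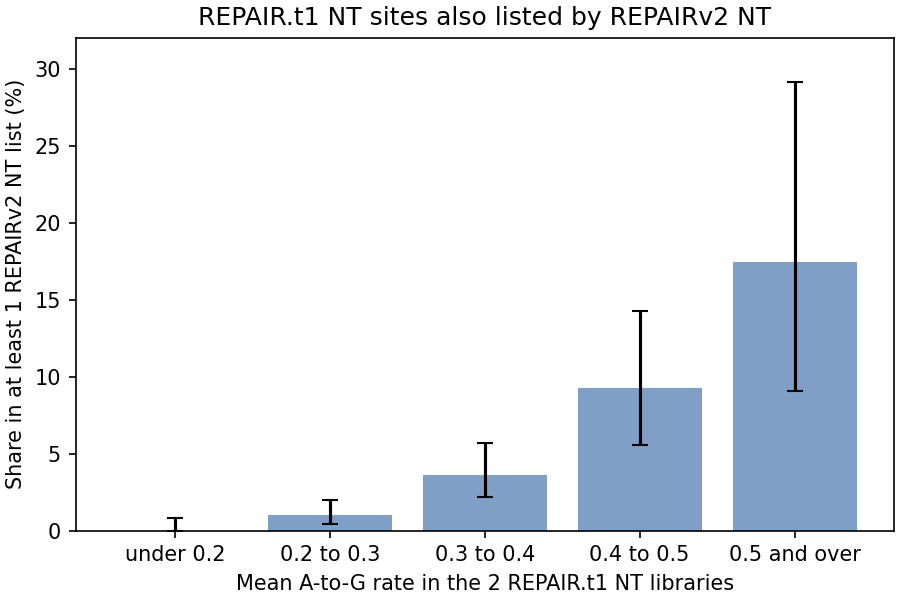
Share of sites in both REPAIR.t1 NT libraries that were also in at least 1 REPAIRv2 NT list, in percent, by the mean A-to-G rate of the 2 REPAIR.t1 NT libraries; error bars are exact Clopper-Pearson 95% intervals. The share was 0 of 455 sites below 0.2 and 17.5% of 63 sites at 0.5 or more.

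Taken per REPAIR.t1 library, the same 1992 sites and REPAIRv2 lists gave the same order, which restates this association and adds no separate evidence. In REPAIR.t1 NT replicate 1 the median rate was 0.261 at the 1937 shared sites that REPAIRv2 NT did not list, 0.380 at the 44 in 1 REPAIRv2 NT list and 0.464 at the 11 in both. In replicate 2 these medians were 0.261, 0.410 and 0.478. Sites in only that REPAIR.t1 library had medians of 0.250 and 0.247. Agreement between the REPAIR.t1 NT replicates sets the scale for differences at a site. Over their 1992 shared sites the median absolute difference between replicates was 0.0548, 74.9% of sites lay within 0.1 of each other, and Pearson's r was 0.642 (Spearman's rho 0.656), a description across sites of one pair of libraries. Between the REPAIRv2 NT replicates the median absolute difference over 11 sites was 0.0752, and r was -0.104 (rho 0.021). These correlations rest on few sites, and position 103717875 on chromosome 4 alone had 0.364 and 0.133 in replicates 1 and 2. Between the REPAIRv2 EZH2_A22 replicates r was 0.474 (rho 0.576) over 29 sites.

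At the sites that all 4 libraries listed, REPAIR.t1 levels were higher. Over these 11 sites the mean rate was 0.467 and 0.519 in REPAIR.t1 NT replicates 1 and 2, and 0.272 and 0.282 in REPAIRv2 NT replicates 1 and 2. Both REPAIR.t1 libraries lay above both REPAIRv2 libraries. The group means were 0.493 ± 0.0365 and 0.277 ± 0.00653 (SD, n = 2 each), a difference of 0.216 (two-sided exact permutation p = 0.333, the smallest possible). The difference was 0.190 to 0.242 at the same 11 sites when a REPAIR.t1 library was left out, 0.182 to 0.197 when a REPAIRv2 library was left out, which widens the set to 33 sites, and 0.229 at the 8 sites that no DECOR library listed. The mean was higher in REPAIR.t1 at all 11 sites. At 9 of the 11 (81.8%) the 2 groups did not overlap, always with REPAIR.t1 higher. Tested with limma on the log2 odds of the rate, 7 of the 11 (63.6%) were higher in REPAIR.t1 at a Benjamini-Hochberg adjusted p below 0.05 and 0 were lower. This fit pooled the replicate spread over the 11 sites. Each p-value thus rests on all these sites together, not on that site's own 4 libraries alone.

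These calls depended on which libraries and sites entered the fit. In limma 0 of 11 sites passed without REPAIR.t1 NT replicate 1 (5 at an unadjusted p below 0.05) and 0 of 11 without REPAIR.t1 NT replicate 2 (4 at an unadjusted p below 0.05). Without REPAIRv2 NT replicate 1, 0 of 33 sites passed (11 at an unadjusted p below 0.05), and without REPAIRv2 NT replicate 2, 6 of 33. In a limma fit of the 55 sites in both REPAIR.t1 NT lists and at least 1 REPAIRv2 NT list, in which the missing REPAIRv2 library was dropped at 44 sites, 0 passed (18 at an unadjusted p below 0.05, smallest adjusted p = 0.0916; 0% called). The direction did not depend on this: 52 of those 55 sites were higher in REPAIR.t1.

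The largest difference among the 11 was at position 103717875 on chromosome 4. Its rate was 0.636 and 0.652 in REPAIR.t1 NT replicates 1 and 2, and 0.364 and 0.133 in REPAIRv2 NT replicates 1 and 2. The REPAIR.t1 values were close to each other while the REPAIRv2 values were spread, and the groups did not overlap (limma log2 odds difference 2.54, SE 0.51, adjusted p = 0.000648; 0.000485 to 0.315 over 10 alternatives). At these 11 sites limma estimated a common spread, so every site has the same SE. That SE does not reflect the REPAIRv2 NT spread at this site (SD 0.163), the largest of the 11. Neither REPAIRv2 EZH2_A22 library listed this position, whereas both REPAIR.t1 EZH2_A22 libraries did, at a mean of 0.578.

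Both sites on chromosome 1 followed. Position 235277158 stood at 0.675 and 0.618 in the REPAIR.t1 NT libraries and at 0.30 and 0.250 in the REPAIRv2 NT libraries (limma adjusted p = 0.00145; 0.000518 to 0.107 over 10 alternatives). Position 156209533 stood at 0.636 and 0.609 against 0.333 and 0.258 (limma adjusted p = 0.00374; 0.00139 to 0.119 over 10 alternatives). At both sites the gap between editors was several times the gap between replicates. The first of them was also in both DECOR lists, at a mean of 0.214.

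At the next 4 sites the difference in mean level lay between 0.202 and 0.275. Position 48362360 on chromosome 12 had rates of 0.545 and 0.704 with REPAIR.t1 and 0.30 and 0.40 with REPAIRv2 (limma adjusted p = 0.00987; 0.00530 to 0.308 over 10 alternatives). Position 16302148 on chromosome 19 had 0.476 and 0.450 against 0.231 and 0.190 (limma adjusted p = 0.00987; 0.00390 to 0.116 over 10 alternatives). Here replicates were within 0.05 of each other on both sides. Position 79614895 on chromosome 15 had 0.425 and 0.704 against 0.273 and 0.432, so that REPAIRv2 NT replicate 2 lay above REPAIR.t1 NT replicate 1 and the groups overlapped, although the site passed (limma adjusted p = 0.0323; 0.0232 to 0.638 over 10 alternatives). Position 95036798 on chromosome 9 had 0.464 and 0.385 against 0.222 in both REPAIRv2 NT libraries (limma adjusted p = 0.0306; 0.00919 to 0.130 over 10 alternatives).

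The last 4 sites did not pass the test. Position 65048599 on chromosome 11 had rates of 0.389 and 0.478 with REPAIR.t1 and 0.250 and 0.375 with REPAIRv2 (limma adjusted p = 0.214; 0.0758 to 0.593 over 10 alternatives). Position 41106898 on chromosome 17 had 0.333 and 0.462 against 0.313 and 0.30 (limma adjusted p = 0.319; 0.10 to 0.530 over 10 alternatives). In each the lower REPAIR.t1 library was only just above the higher REPAIRv2 library. Position 69177184 on chromosome 16 had 0.308 and 0.313 against 0.20 and 0.250 (limma adjusted p = 0.294; 0.0933 to 0.332 over 10 alternatives). Position 80573819 on chromosome 17 had 0.250 and 0.333 against 0.211 and 0.286 and was the other site with overlapping groups (limma adjusted p = 0.549; 0.0419 to 0.951 over 10 alternatives, the lowest with the replicate number as a block, under which this site passed). The 4 REPAIR.t1 means here, 0.292 to 0.434, were lower than the REPAIR.t1 means of 6 of the 7 sites that passed, whereas the REPAIRv2 means, 0.225 to 0.313, lay among those of the sites that passed.

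**Figure D3:**
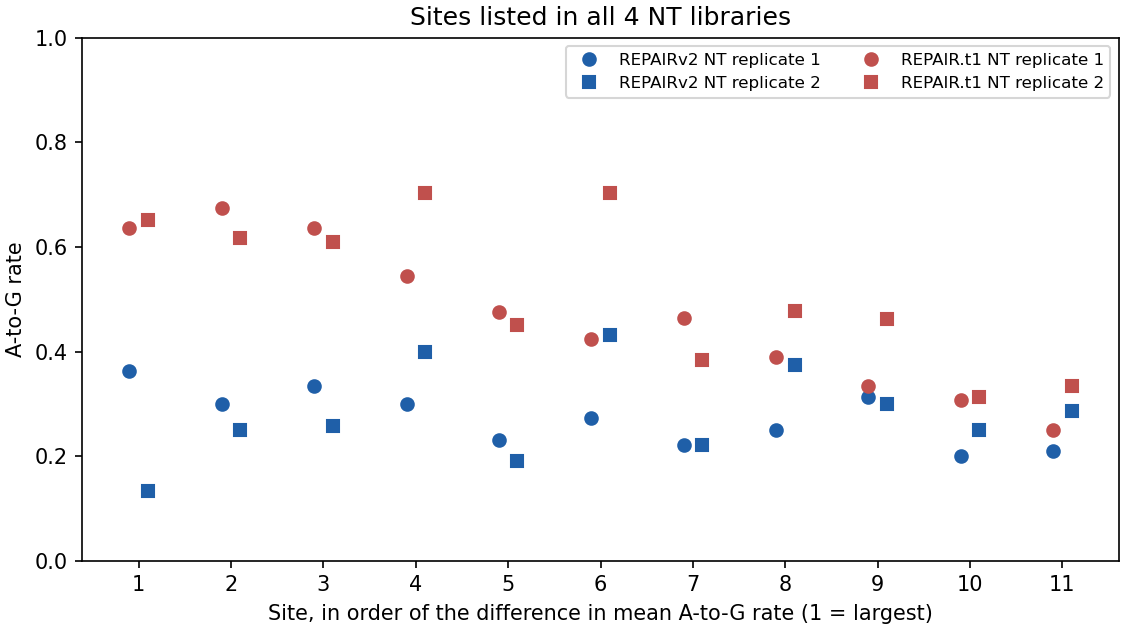
A-to-G rate in each of the 4 NT libraries at the 11 sites listed in all of them (red, REPAIR.t1; blue, REPAIRv2; circle, replicate 1; square, replicate 2), in order of the difference in mean rate, from 0.396 at site 1 to 0.0435 at site 11. REPAIR.t1 values are above REPAIRv2 values at 9 sites and overlap at sites 6 and 11.

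The wider set of 55 sites gave a like picture. The mean rate over these sites was 0.420 in REPAIR.t1 NT and 0.236 in REPAIRv2 NT, a difference of 0.184 with an SD over sites of 0.105, and the median ratio of REPAIR.t1 to REPAIRv2 was 1.86. At 47 of 55 sites (85.5%) both REPAIR.t1 libraries lay above every REPAIRv2 library that listed the site, at 0 both lay below, and at 8 they overlapped. At 23 sites the REPAIR.t1 mean was at least 2 times the REPAIRv2 mean. Since a site enters only where REPAIRv2 was listed, REPAIRv2 levels under the detection limit are missing from these means. Across the 55 sites the correlation between the editors' levels was r = 0.595 and rho = 0.418, a description over sites of the same 4 libraries.

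Several sites in only 1 REPAIRv2 NT list differed as much as those in both. Position 203160483 on chromosome 2 had rates of 0.633 and 0.542 in the REPAIR.t1 NT libraries and 0.179 in REPAIRv2 NT replicate 2, the largest difference in mean level of the 55 (0.409). With the EZH2_A22 guide the gap at this position was smaller, with 0.424 and 0.50 in REPAIR.t1 and 0.267 and 0.36 in REPAIRv2. The largest ratio, 4.26, was at position 72491603 on chromosome 15, with 0.411 and 0.382 against 0.0930 in REPAIRv2 NT replicate 1. The highest rate in any REPAIRv2 NT list was 0.727, at position 195778213 on chromosome 3 in replicate 2, where the REPAIR.t1 NT libraries had 0.800 and 0.909. At 3 of the 55 sites the REPAIRv2 level was the higher one, most at position 231685066 on chromosome 2, with 0.583 in REPAIRv2 NT replicate 2 against 0.667 and 0.40. That value lies between the REPAIR.t1 replicates. The sites of this paragraph were chosen after their values were seen.

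**Figure D4:**
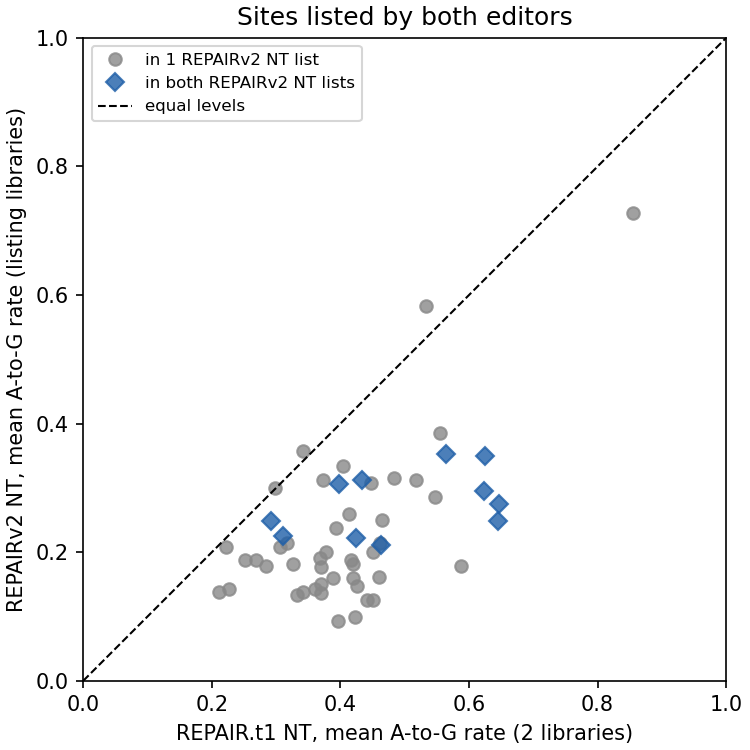
Mean A-to-G rate in the REPAIRv2 NT libraries that listed a site against the mean in the 2 REPAIR.t1 NT libraries, for the 55 sites in both REPAIR.t1 NT lists and at least 1 REPAIRv2 NT list (diamonds, in both REPAIRv2 NT lists). The dashed line marks equal rates; 52 sites lie below it.

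The same contrast with the EZH2_A22 guide, in libraries that the comparison above did not use, ran the same way. At the 26 sites in all 4 EZH2_A22 libraries the mean rate was 0.451 in REPAIR.t1 (0.441 to 0.461 over libraries) and 0.256 in REPAIRv2 (0.251 to 0.260), a difference of 0.196, with no overlap at 22 (84.6%). For the 21 of these that were not among the 11 NT sites the difference was 0.185, and the groups did not overlap at 18 of the 21 (85.7%), each time with REPAIR.t1 higher. Some of the 21 were in the wider NT set of 55 sites above, so they are not all new sites. Each REPAIRv2 library listed at least 87 sites with this guide, against 46 with NT. REPAIR.t1 replicates 1 and 2 listed 4764 and 4784 sites with this guide, against 4683 and 4356 with NT. The length of the REPAIRv2 lists thus differed far more between guides than that of the REPAIR.t1 lists. The ratio of site numbers between the editors was 50.9 with this guide and 98.2 with NT. The ratio of these ratios was 0.519 (two-sided exact permutation p = 0.333, guide labels permuted within each editor over 36 arrangements, where the smallest possible p is 0.0556). With 2 libraries per group, this test could not have passed 0.05.

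At the 11 sites dCas13d-ADAR NT gave mean rates of 0.563 and 0.618 in its replicates, and listed all 11 in both. Of the 11, 8 were in at least 1 REPAIRv2 EZH2_A22 list, 11 in at least 1 REPAIR.t1 EZH2_A22 list and 3 in at least 1 DECOR list. No such share was counted for all REPAIR.t1 NT positions.

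The sites with the highest REPAIR.t1 levels that neither REPAIRv2 NT library listed had rates of 0.50 to 0.846. The highest mean, 0.716, was at position 150345451 on chromosome 3, with 0.682 and 0.750 in the REPAIR.t1 NT libraries. Position 139818310 on chromosome 9 had 0.50 and 0.846, a wide gap between replicates, and position 377385 on chromosome 20 had 0.696 and 0.615. The other 7 of the 10 highest had means of 0.600 to 0.622. They were positions 105063134 on chromosome 10, 115273010 on chromosome 1, 76749730 and 172195559 on chromosome 5, 43100400 on chromosome 6, 148922367 on chromosome 7 and 2132555 on chromosome 19. Missing from the NT lists did not mean missing from REPAIRv2 lists altogether, as 5 of the 10 were in at least 1 REPAIRv2 EZH2_A22 list. Position 115273010 was in both of those, at 0.207 and 0.238, against 0.632 and 0.595 in REPAIR.t1 NT. All 10 were in at least 1 dCas13d-ADAR NT list, and none in a DECOR list. The share of all REPAIR.t1 NT sites in those lists was not counted.

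The 17 REPAIRv2 NT positions that neither REPAIR.t1 NT library listed were each in only 1 REPAIRv2 NT list, 8 in replicate 1 and 9 in replicate 2. Of the 17, 10 were in no other list of the series. In the REPAIR.t1 EZH2_A22 and dCas13d-ADAR lists, which the split into 17 and 64 did not use, 5 of the 17 and all 64 of the others were in at least 1 list. In the REPAIRv2 EZH2_A22 lists 2 of the 17 recurred, against 33 of the 64 (51.6%), and in the REPAIR.t1 EZH2_A22 lists 2 of 17 against 62 of 64. The 64 were REPAIR.t1 NT positions by definition. Of a REPAIR.t1 NT list, 44.7% to 46.8% was in a single REPAIR.t1 EZH2_A22 list. The share of all REPAIR.t1 NT positions in at least 1 list of these groups was not counted. The 64 include the 11 positions in both REPAIRv2 NT lists, 8 of which were in a REPAIRv2 EZH2_A22 list. Since all of the 17 were in only 1 REPAIRv2 NT list, the 2 sets also differ in this. DECOR lists held 2 of the 17 and 7 of the 64. The median REPAIRv2 level was 0.286 at the 17 and 0.212 at the 64. No test was run on these counts, because the positions of a library are not replicates.

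**Figure D5:**
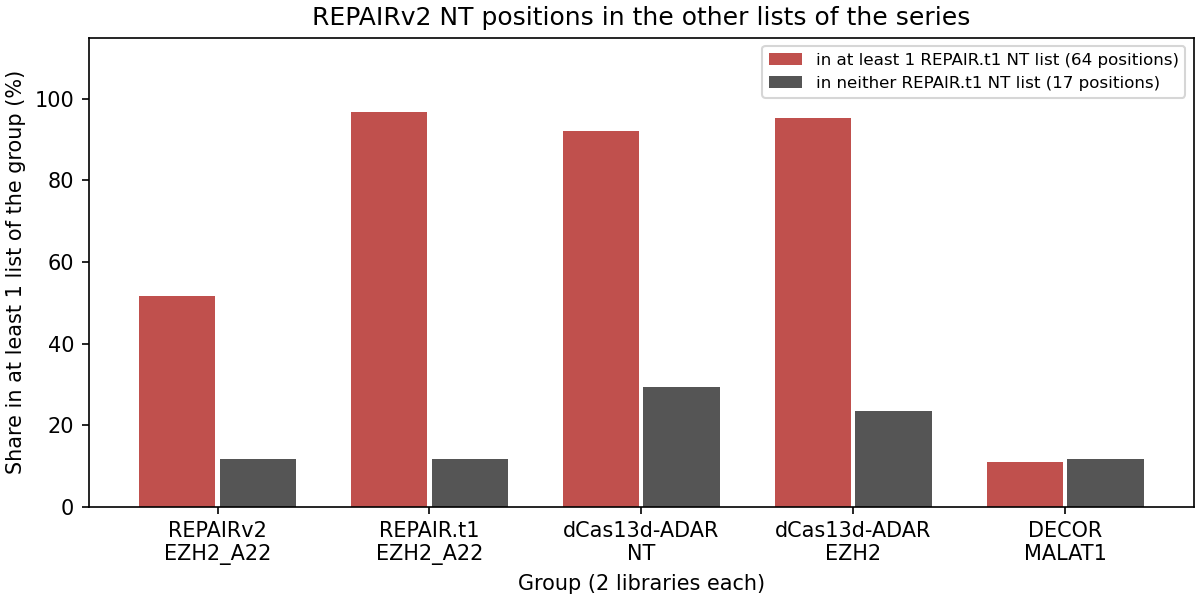
Share of REPAIRv2 NT positions, in percent, found in at least 1 of the 2 lists of each other group, for the 64 positions in at least 1 REPAIR.t1 NT list (red) and the 17 in neither (grey). REPAIRv2 EZH2_A22 lists held 33 of the 64 and 2 of the 17. The 64 include 11 positions in both REPAIRv2 NT lists, and the 17 include none.

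The highest of the 17 was position 56130743 on chromosome 7, at 0.622 in REPAIRv2 NT replicate 1, and it was in no other list. Positions 120898999 and 120898998 on chromosome 12 are neighbouring bases, at 0.600 and 0.375 in REPAIRv2 NT replicate 2, also in no other list; a REPAIR.t1 NT site lay 30 bases from the first. Position 28661831 on chromosome 1 was at 0.455 in replicate 1. The other 6 in no other list were at 0.250 to 0.313. They were positions 10194882 on chromosome 3, 75008792 on chromosome 10, 20978457 on chromosome 1, 37431538 on chromosome 2, 50158505 on chromosome 12 and 102277676 on chromosome 7.

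The remaining 7 were in lists of other editors or of the EZH2_A22 guide. Position 94983517 on chromosome 1, at 0.294 in REPAIRv2 NT replicate 2, was in 5 other lists, among them both REPAIR.t1 EZH2_A22 lists at a mean of 0.542. Position 42857144 on chromosome 6, at 0.235 in replicate 1, was in 7 other lists, both REPAIR.t1 EZH2_A22 lists among them. Both positions were thus listed for REPAIR.t1, but with the other guide. Position 6440856 on chromosome 19 was at 0.364 in REPAIRv2 NT replicate 2 and in 3 dCas13d-ADAR lists, and position 19304914 on the same chromosome was at 0.273 in replicate 1 and in 4 dCas13d-ADAR lists. Position 144686880 on chromosome 8 was at 0.385 in replicate 2 and in both dCas13d-ADAR NT lists. Position 42855057 on chromosome 6, at 0.208, was in both DECOR lists and 1 REPAIRv2 EZH2_A22 list, and position 10195063 on chromosome 3, at 0.190, in 1 DECOR list.

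A larger share of sites had a close neighbour in both REPAIR.t1 NT lists than in either REPAIRv2 NT list. Of the sites in REPAIR.t1 NT replicates 1 and 2, 21.4% and 20.6% had another site of the same list within 50 bases, against 0% and 4.35% in REPAIRv2 NT replicates 1 and 2. The 4.35% is the neighbouring pair on chromosome 12. The difference was 18.8 percentage points (two-sided exact permutation p = 0.333, the smallest possible), 8.37 points within 10 bases and 36.7 points within 500 bases. A longer list has closer neighbours whatever the editor, and the lists differ in length by the ratio above; the part of list length in this difference was not tested. Of the 17 REPAIRv2 NT positions missing from the REPAIR.t1 NT lists, 2 lay within 50 bases of a REPAIR.t1 NT site and 9 within 1000 bases.

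Positions of both editors were spread over most chromosomes. Chromosome 1 held the most of both, 916 of the REPAIR.t1 NT positions (13.0%) and 10 of the REPAIRv2 NT positions (12.3%). Chromosome 19 held 8.23% and 6.17%, and chromosome 17 held 6.46% and 6.17%. Chromosome 3 held 5.76% of the REPAIR.t1 and 11.1% of the REPAIRv2 positions, which are 9 positions. Chromosomes 13, 18, 21 and 22 held no REPAIRv2 NT position and 49, 58, 80 and 257 REPAIR.t1 NT positions. With 81 positions in all, 0 on a chromosome allows a share of up to 3.70%, which is above the REPAIR.t1 NT share of each of the 4 taken singly, 3.65% on chromosome 22 being the highest. Together the 4 held 444 REPAIR.t1 NT positions (6.30%), which is above that limit, but the 4 were put together because they held no REPAIRv2 NT position, and no test was run.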

How the data were processed

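Polyadenylated RNA of HEK293T cells was sequenced, and each library has 1 deposited list of regions, positions and A-to-G rates. The deposited rates are a fraction between 0 and 1. The submitters' processing notes name cutadapt, STAR 2.6.1b, hg19 and GRCh37 without role or order. Not given in the sources used here are the program that called sites, its thresholds and any removal of DNA variants. No list holds a rate below 0.0597. Each list was used as deposited, and groups were taken from the titles. Reads had 25 and 97 cycles in all 4 libraries compared.

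Sites were matched by identical chromosome and position. For per-library values an exact permutation test, two-sided, was used. Rates at sites in all 4 libraries were turned into log2 odds (0.01 added to rate and complement) and tested in limma 3.58.1 (lmFit, eBayes) with Benjamini-Hochberg adjustment over all sites fitted and a threshold of 0.05; a minimum of 5 sites was set. The test was tried on simulated data. Depth is unknown, so precision rests on the replicates. In the limma fit of sites in all 4 libraries their spread was pooled over the sites, although sites of a library are not replicates.

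Named are every site in all 4 libraries, REPAIRv2 NT positions in both its lists but not in both REPAIR.t1 NT lists (none), the highest 15 REPAIRv2 NT positions in neither REPAIR.t1 NT list and the 10 highest REPAIR.t1 NT sites in no REPAIRv2 NT list; the last 2 of the 17 were added after their values were seen. Members and rules were chosen with earlier results of these data known. Gene names, fixed gene lists, markers and sequences were not used, because only tables of a different genome build were given. Alternatives were minimum levels, other added values, windows, site sets, a replicate block, a trend, each library left out and, chosen after seeing the data, no DECOR positions. Python 3.11.15 (numpy 2.4.6, pandas 2.3.3, scipy 1.17.1), R 4.3.3 and matplotlib 3.10.9 were used.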

Additional observations from a re-analysis of the deposited data

Results flagged for a closer look

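At position 41106898 on chromosome 17 the editors stood in opposite order with the 2 guides. Both REPAIR.t1 NT libraries lay above both REPAIRv2 NT libraries, but with the EZH2_A22 guide the only REPAIR.t1 library that listed the site (0.250) lay below the only REPAIRv2 library that did (0.308), a difference of REPAIR.t1 minus REPAIRv2 of -0.0577. The difference between guides was not tested, and with 1 listing library per editor it has no replicate check.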

How the results depend on the processing

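The ratio of site numbers was 181.1 when only sites found in both replicates were counted and 94.7 to 101.8 with a library left out. The median difference was -0.0227 to 0.00595 with a library left out and turned to 3.55e-05 at a minimum level of 0.2. The mean share of REPAIRv2 positions in REPAIR.t1 lists was 68.7% at a minimum level of 0.2, 76.1% to 77.2% with a library left out, and 0.781% taken as a share of the REPAIR.t1 list. The number of sites passing limma (7 of 11) was 0 of 55 in the wider set and 0 to 6 with a library left out, where the lone library of a group is assumed to vary like the other group, and 5 of 11 both with a trend and with the replicate number as a replicate block (4 of the 7 kept). Deviations of same-numbered libraries had r = 0.619 over 11 sites, but with 2 pairs and no label that ties the numbers to a culture or day, the libraries share only a number. The block left the ratio of site numbers at 98.2 and the mean level difference at 0.216. Each had p = 0.5 in an exact permutation test within pairs, the smallest possible with 2 pairs. No site reversed its direction under any of the 10 limma alternatives. The share of REPAIR.t1 sites in both REPAIRv2 NT lists was 0.552% over all levels, 0.127% from 0.2 to 0.3, 0.404% from 0.3 to 0.4, 1.55% from 0.4 to 0.5 and 7.94% at 0.5 or more. In any of the 4 REPAIRv2 lists it was 6.33%, 2.68%, 8.89%, 19.1% and 36.5%. With a library left out it was 1.26% to 1.66%, 0.359% to 0.637%, 1.62% to 2.42%, 4.06% to 5.67% and 5.91% to 14.3%; these fall partly by construction, since 1 list fewer is asked or searched. Shares of neighbours (16.6 to 21.0 points), mean levels (0.182 to 0.242, over 11 or 33 sites) and the ratio between guides (0.481 to 0.559) kept their direction with each library left out. Unknown depth limits every statement on sites missing from a list.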
